A study of Mus musculus with 4 samples.

Results

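The genes described here are 10 secreted factors that draw myeloid cells to a site or keep them alive there: the chemokines Ccl2, Ccl7, Ccl5, Ccl20, Cxcl1, Cxcl2, Cxcl5 and Cxcl16 and the colony-stimulating factors Csf1 and Csf2. They were chosen by name from 27179 genes in the count table, and all 10 were in it. No threshold on their values was used, but earlier results of these data were known. MC38, a mouse colon carcinoma cell line whose genotype is given as WT, was sequenced as 1 RNA-seq library for each of 4 conditions: control cells under normoxic conditions (20% oxygen), control cells under hypoxic conditions (1.5% oxygen), cells given IFN-γ under normoxic conditions, and cells given IFN-γ under hypoxic conditions. The methods give 5 ng/mL IFN-γ for 24 h for most experiments, with comparisons of dose and time as the exceptions. This dose and time were taken for these libraries, which the methods do not name there. No time under hypoxia is given. With no replicate in any condition, the p-values below set each change against the departure from an additive model, pooled over genes. They do not set it against the spread between cultures, and nothing shows which of the differences another culture would repeat.

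Chemokines are small secreted proteins that bind G protein-coupled receptors on leukocytes and direct them along a gradient. Ligands with adjacent first cysteines (CC) such as CCL2 and CCL7 act mainly on monocytes through CCR2, whereas the CXC ligands CXCL1, CXCL2 and CXCL5 act on neutrophils through CXCR2. Colony-stimulating factors are cytokines: CSF1 binds CSF1R and keeps monocytes and macrophages alive, and CSF2 (GM-CSF) acts on granulocytes, macrophages and dendritic cells. Tumour cells are known to make several of these factors, often under the control of NF-κB.

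The 4 libraries held between 34302971 and 34537939 counts on genes, so that 3 counts, taken as the floor of detection, were about 0.0869 to 0.0875 CPM (counts scaled to library size). In each library, genes at 2 counts outnumbered genes at 1 count by 1.98 to 2.28 times, as would be seen if both mates of a read pair were counted, which the sources do not state. The intervals below treat counts as independent and cover counting error only. They are too narrow if mates were counted singly, and intervals from halved counts were added after the data had been seen. All 10 listed genes of the IFN-γ response, Irf1 among them, were raised by IFN-γ. The 10 listed hypoxia genes, Car9 and Bnip3 among them, were all raised by hypoxia. Both lists were chosen with earlier results of these data known, so they are no independent check of the labels. The labelled colon cancer cells had few or no counts of epithelial markers: Cdh1 and Cdx2 were at 0 in every library, Epcam had 0 to 2 counts and Krt8 had 48 to 90. Of 13 myeloid markers, Itgam and Adgre1 were at 0 in every library, Ptprc had 2 to 12 counts, Cd68 170 to 236 and Cd14 538 to 611, and the list summed to between 24.5 and 29.0 CPM. Of the 6 tested myeloid markers, 0 were called for either stimulus by edgeR or DESeq2, 0 had an unadjusted p under 0.05. Of 10 markers of fibroblasts and endothelial cells, Col3a1 had 2233 to 3238 counts, Pdgfra 1077 to 1341 and the others 0 to 105, and the list summed to between 103 and 140 CPM. Col3a1 was lowered by IFN-γ (log2 change -0.39, adjusted p = 1.98e-07 by edgeR).

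RefSeq's promoter table for GRCm38.p6 held 5 of the 10 genes (Ccl20, Cxcl1, Cxcl2, Csf1 and Csf2). Those of Cxcl1, Cxcl2 and Csf1 are shown up to the base before the start, 5′ to 3′ along the gene: Cxcl1 and Cxcl2 because these neighbours on chromosome 5 share a motif while 1 was well counted and the other hardly at all, and Csf1 because it was the gene called for both stimuli. Capitals mark letters that match the NF-κB motif or the hypoxia element ACGTG, on either strand.
Cxcl1, chr5:90890995-90891244, plus strand: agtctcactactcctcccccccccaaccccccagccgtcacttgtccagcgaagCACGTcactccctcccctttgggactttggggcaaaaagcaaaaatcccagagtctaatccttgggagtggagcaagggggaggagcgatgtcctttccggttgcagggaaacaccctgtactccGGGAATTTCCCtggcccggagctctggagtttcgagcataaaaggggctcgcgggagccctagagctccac
Cxcl2, chr5:90903649-90903898, plus strand: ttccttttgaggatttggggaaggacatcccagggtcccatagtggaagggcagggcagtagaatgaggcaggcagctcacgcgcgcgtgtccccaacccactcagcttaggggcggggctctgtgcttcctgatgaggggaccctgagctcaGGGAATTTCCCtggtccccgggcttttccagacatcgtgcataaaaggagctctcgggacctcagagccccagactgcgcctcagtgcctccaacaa
Csf1, chr3:107760470-107760719, minus strand: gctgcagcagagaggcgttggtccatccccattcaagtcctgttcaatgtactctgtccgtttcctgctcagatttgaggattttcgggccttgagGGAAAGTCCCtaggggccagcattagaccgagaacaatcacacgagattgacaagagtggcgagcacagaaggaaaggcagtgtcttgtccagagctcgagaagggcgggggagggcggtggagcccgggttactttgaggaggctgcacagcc
The first capitals in Cxcl1 are the hypoxia element, read on the opposite strand from base -196 to -192 relative to the start, which is base 0. The NF-κB match lay at bases -71 to -62 in Cxcl1, at bases -97 to -88 in Cxcl2 with the same letters, and at bases -154 to -145 in Csf1. In Cxcl1 and Cxcl2 a second NF-κB match on the opposite strand overlapped the first by all but 1 base. Ccl20 also held an NF-κB match, at bases -80 to -71, and Csf2 held none of the motifs. Within the window of 250 bases before and 50 after the start, no match to the GAS motif TTCNNNGAA, the AP-1 motif TGANTCA or the interferon-stimulated element (searched by its usual letters) was present in any of the 5. Among all 32851 promoters of this length, 8.46% held an NF-κB match, 19.6% the hypoxia element, 8.30% GAS, 7.81% AP-1 and 3.44% the interferon-stimulated element. A match describes letters and does not show binding.

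The 10 genes differed widely in level. On the scale of CPM per kilobase of the longest protein-coding transcript, which allows genes to be compared with each other, Ccl2 was first in all 4 libraries, from 82.7 in IFN-γ hypoxia to 181 in IFN-γ normoxia. Ccl5, Cxcl1 and Csf1 followed between 12.3 and 40.6 CPM per kilobase, and Ccl7 came after them in every library at 1.46 to 4.33. Cxcl5, Cxcl16, Cxcl2, Ccl20 and Csf2 stayed at or under 0.276 CPM per kilobase throughout.

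The order of the 3 genes behind Ccl2 depended on the condition. In both control libraries it was Ccl5, Cxcl1 and Csf1, at 33.3, 25.03 and 20.1 CPM per kilobase in normoxia and at 28.9, 24.4 and 12.3 in hypoxia. In IFN-γ normoxia Csf1 stood second at 36.2 (95% interval 35.2 to 37.2) with Ccl5 after it at 32.1 (29.5 to 34.8), and Cxcl1 stood at 18.4. In IFN-γ hypoxia Ccl5 at 40.6 (37.7 to 43.6) was ahead of Csf1 at 29.5 (28.6 to 30.4) and Cxcl1 at 18.5. The intervals of these neighbours did not overlap, with each interval covering counting error alone. With intervals from halved counts, Ccl5 and Cxcl1 overlapped in control hypoxia (25.6 to 32.6 and 22.1 to 26.9), and so did Csf1 and Ccl5 in IFN-γ normoxia (34.8 to 37.6 and 28.6 to 36.0). Taking the longest transcript of any type instead, an alternative added later, put Csf1 before Cxcl1 in control normoxia. The longest Cxcl1 transcript has 1871 bases, against 953 for its longest protein-coding one. In control hypoxia this alternative left Cxcl1 and Csf1 nearly level, at 12.4 and 12.3 CPM per kilobase. The intervals of Cxcl5 and Cxcl16 overlapped in every library but IFN-γ normoxia (0.142 to 0.435 and 0.0175 to 0.126), and there too with halved counts (0.104 to 0.534 and 0.0134 to 0.189).

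**Figure D1:**
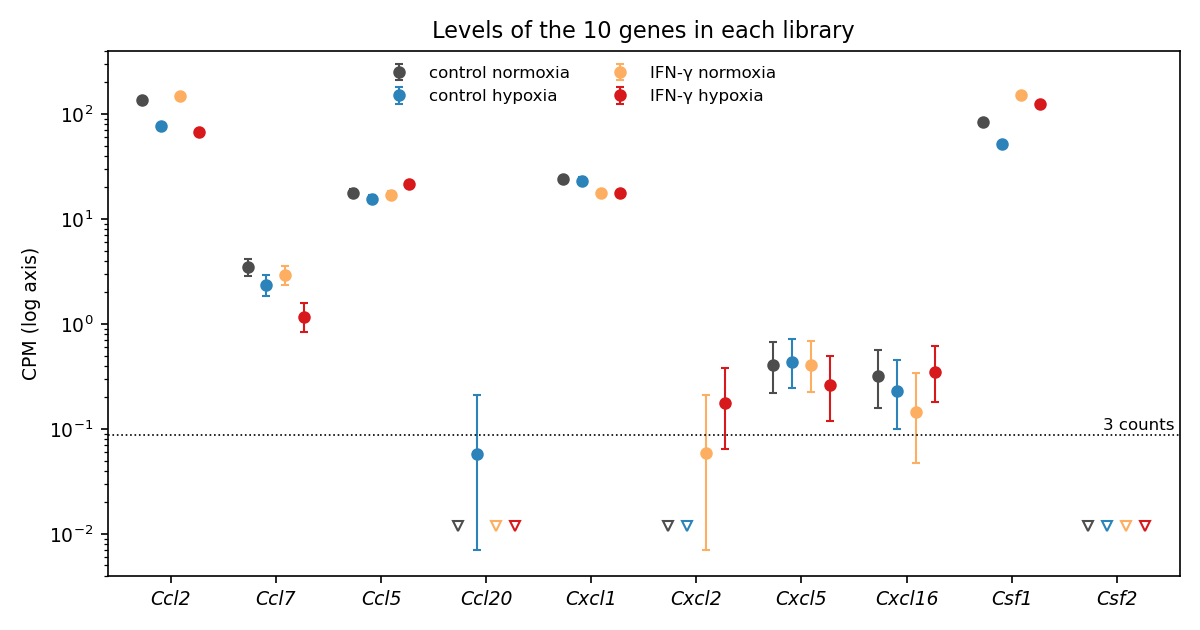
Levels of the 10 genes in CPM on a log axis, with 1 point per library and exact Poisson 95% intervals; open triangles at the bottom stand for 0 counts, and the dotted line marks 3 counts. Ccl2 and Csf1 lie at the top, Csf2 is at 0 in all 4 libraries, and the points of Ccl2 from the hypoxic libraries lie under those from the normoxic ones.

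Of the 10 genes, 7 passed the filter on low counts and were tested among 13580 genes with edgeR (quasi-likelihood, terms for oxygen and for IFN-γ, Benjamini-Hochberg adjustment over every gene tested). Ccl20, Cxcl2 and Csf2 did not pass it. Hypoxia lowered 3 of the 7 (Ccl2, Ccl7 and Csf1), where 6.83% of all tested genes were lowered, and raised 0, where 8.21% were raised. At an unadjusted p under 0.05 it raised 0 as well, as did DESeq2. In either direction hypoxia called 15.0% of tested genes. IFN-γ raised 1 (Csf1), where 4.76% of tested genes were raised, and lowered 1 (Cxcl1), where 1.1% were lowered, and called 5.86% in either direction. The median log2 change of the 7 was -0.17 with IFN-γ and -0.23 with hypoxia, beside -0.01 and 0.00 over all tested genes. Each of these medians is the value of 1 gene with few counts. For IFN-γ it is Cxcl16 (5 to 12 counts, SE 0.689) and for hypoxia Cxcl5 (9 to 15 counts, SE 0.583). Neither median therefore describes the well-counted factors.

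**Figure D2:**
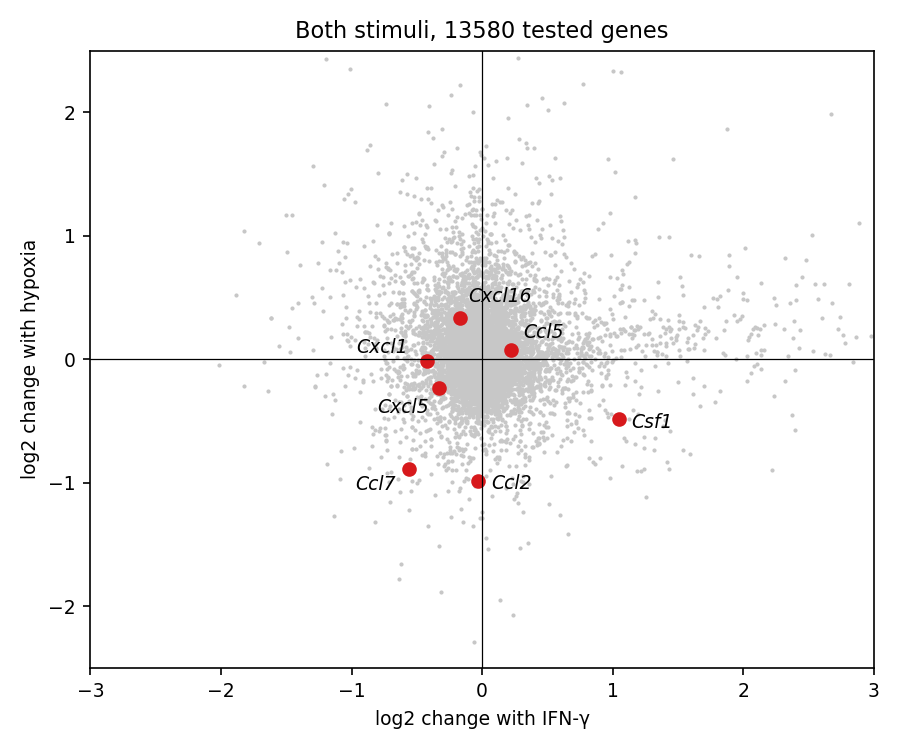
Fitted log2 change with IFN-γ (horizontal) against that with hypoxia (vertical) for all 13580 tested genes in grey, 68 of which lie outside the plotted range, with the 7 tested factors in red. Csf1 sits to the right of and under the centre, Ccl2 straight under it, and Cxcl1 to its left.

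Ccl2 (NCBI gene 20296, chr11:82035577-82037452 in mm10) encodes MCP-1, the main ligand of CCR2 on monocytes. It had 4719 counts in control normoxia, 2634 in control hypoxia, 5041 in IFN-γ normoxia and 2302 in IFN-γ hypoxia, which is 136, 76.2, 147 and 67.2 CPM. Both hypoxic libraries were below both normoxic ones. Hypoxia lowered Ccl2 by a log2 change of -0.98 (SE 0.0628, adjusted p = 3.84e-52), the fourth lowest of 11489 tested genes whose mean reached 50 counts. Between single libraries the level in hypoxia was 0.559 times that in normoxia without IFN-γ and 0.457 times with it. The SE and p rest on a spread pooled over genes. The departure of Ccl2 itself from additivity, given below, was reached in size by 3.4% of genes of like expression, so they do not measure it. The call held in all 7 alternative fits, with adjusted p from 9.47e-23 to 0.0107. IFN-γ gave a fitted log2 change of -0.03 (adjusted p = 0.937).

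Ccl7 (NCBI gene 20306, chr11:82045712-82047525) encodes MCP-3, a monocyte attractant that uses CCR2 among other receptors, and lies next to Ccl2 in the CC chemokine cluster of chromosome 11. It had 120, 81, 100 and 40 counts in control normoxia, control hypoxia, IFN-γ normoxia and IFN-γ hypoxia. As with Ccl2, the hypoxic libraries were the 2 lowest. The fitted log2 change with hypoxia was -0.89 (SE 0.242, adjusted p = 0.00315), the fifth lowest on the same ranking. This call rests on few counts: the adjusted p was 0.054 with halved counts and 0.316 without IFN-γ in the model, and DESeq2 gave none. With IFN-γ the log2 change was -0.56 (adjusted p = 0.211), and the single pairs gave -0.25 (95% interval -0.65 to 0.15) under normoxia and -0.996 (-1.59 to -0.44) under hypoxia. No 31-base stretch of Ccl2 or Ccl7 transcripts occurs in another annotated gene, so their counts could not have been split by shared reads of that length.

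Csf1 (NCBI gene 12977, chr3:107741048-107760469), the macrophage colony-stimulating factor, was the one factor called for both stimuli. It had 2907 counts in control normoxia, 1781 in control hypoxia, 5181 in IFN-γ normoxia and 4222 in IFN-γ hypoxia, which is 84.0, 51.5, 151 and 123 CPM. Both IFN-γ libraries exceeded both control libraries, and within each the hypoxic library was the lower. IFN-γ raised it by a log2 change of 1.05 (SE 0.0635, adjusted p = 3.33e-58) and hypoxia lowered it by -0.49 (SE 0.0632, adjusted p = 1.17e-12). These SE and p rest on a spread pooled over genes. The departure of Csf1 itself from additivity, given below, was large among genes of like expression, so they do not measure it. The IFN-γ change of Csf1 ranked 162nd highest among 11489 genes and its hypoxia change 79th lowest. In a model with 1 factor at a time, in which the other stimulus counts as spread, the adjusted p was 0.118 for IFN-γ and 0.702 for hypoxia. The 6 other alternatives kept both calls. Genes that IFN-γ raised and hypoxia lowered numbered 21, with Csf1 among them, or 3.25% of those raised by IFN-γ.

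The IFN-γ change of Csf1 was 1.80-fold under normoxia (log2 0.85, 95% interval 0.78 to 0.91) and 2.39-fold under hypoxia (1.26, 1.18 to 1.34). In the other direction, hypoxia gave 0.614 times the normoxic level in control cells and 0.816 times in cells with IFN-γ. With both stimuli together Csf1 was 1.47 times the level with neither. Il34, which encodes the other ligand of CSF1R, had 305, 348, 231 and 315 counts in the same order of libraries and was not called for either stimulus. Csf1r, the receptor that both ligands share, had 12, 4, 9 and 4 counts.

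Csf2 (NCBI gene 12981, chr11:54247270-54249899), which encodes GM-CSF, had 0 counts in all 4 libraries, where 3 counts would be 0.0869 to 0.0875 CPM and the exact 95% intervals reach 0.107 to 0.108 CPM. Its receptor subunits Csf2ra and Csf2rb2 were at 0 as well, and Csf2rb had 0 to 2 counts. A change in Csf2 could not be seen at this depth.

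Of the CXCR2 ligands Cxcl1, Cxcl2 and Cxcl5, only Cxcl1 had more than 15 counts. Cxcl1 (NCBI gene 14825, chr5:90891245-90893121), called KC in the mouse, had 826 counts in control normoxia, 803 in control hypoxia, 601 in IFN-γ normoxia and 603 in IFN-γ hypoxia. The counts at the 2 oxygen levels were alike, and both IFN-γ libraries were lower than both controls. IFN-γ lowered Cxcl1 by a log2 change of -0.42 (SE 0.0920, adjusted p = 1.45e-04), or to 0.735 times the control under normoxia and 0.758 times under hypoxia. DESeq2 did not call it (adjusted p = 0.338), nor did the model with 1 factor at a time (0.181), while the 5 other alternatives did. For hypoxia the fitted log2 change was -0.02 (adjusted p = 0.937), and the single pairs gave -0.04 (95% interval -0.18 to 0.10) in control cells and 0.01 (-0.16 to 0.17) with IFN-γ.

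Cxcl2 (NCBI gene 20310, chr5:90903899-90905938), or MIP-2, shares the CXCR2 receptor and, as printed above, the NF-κB letters of Cxcl1. It had 0 counts in both control libraries, 2 in IFN-γ normoxia and 6 in IFN-γ hypoxia. Only the last is above the floor. With control hypoxia taken at 3 counts it is at least 2.02-fold higher, a bound that leaves out the counting error of the 6 counts, and its interval of 0.0643 to 0.381 CPM overlaps that of control hypoxia, 0 to 0.107. Of its 31-base words, 7.59% also occur in Cxcl3, which had 103, 64, 48 and 49 counts, so reads could be split between these genes. Cxcl5 (NCBI gene 20311, chr5:90759298-90761625), or LIX, had 14, 15, 14 and 9 counts. Its changes had 95% intervals as wide as -2.10 to 0.56 and were called for neither stimulus, with adjusted p of 0.922 for IFN-γ and 0.852 for hypoxia. Ppbp, another CXCR2 ligand from the same cluster, had 152, 202, 114 and 113 counts. The edgeR fit called it lowered by IFN-γ (log2 change -0.62, adjusted p = 0.0158), and DESeq2 did not. With halved counts its IFN-γ interval included 0 under normoxia (-0.92 to 0.11) but not under hypoxia (-1.31 to -0.33). Cxcl3 was not called for either stimulus.

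The remaining chemokines act on several cell types. Ccl5 (NCBI gene 20304, chr11:83525778-83530518), or RANTES, draws monocytes and T cells. It had 614 counts in control normoxia, 531 in control hypoxia, 585 in IFN-γ normoxia and 740 in IFN-γ hypoxia, with the library given both stimuli the highest. Neither fitted change was called, at a log2 change of 0.22 with IFN-γ (adjusted p = 0.232) and 0.07 with hypoxia (adjusted p = 0.69). The single pairs differed from these means: IFN-γ gave 0.962 times the control under normoxia and 1.41 times under hypoxia.

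Cxcl16 (NCBI gene 66102, chr11:70454389-70459984), a transmembrane chemokine that is released by shedding and binds CXCR6, had 11, 8, 5 and 12 counts. It was called for neither stimulus (adjusted p = 0.978 for IFN-γ and 0.816 for hypoxia), and its 95% intervals ran as wide as -0.34 to 3.12. Adam10 and Adam17, the proteases that shed it, had 2512 to 2830 and 3789 to 4290 counts, and neither was called. Ccl20 (NCBI gene 20297, chr1:83116766-83119167), the ligand of CCR6, had 2 counts in control hypoxia and 0 in the other libraries, all under the floor, so no fold was computed.

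**Figure D3:**
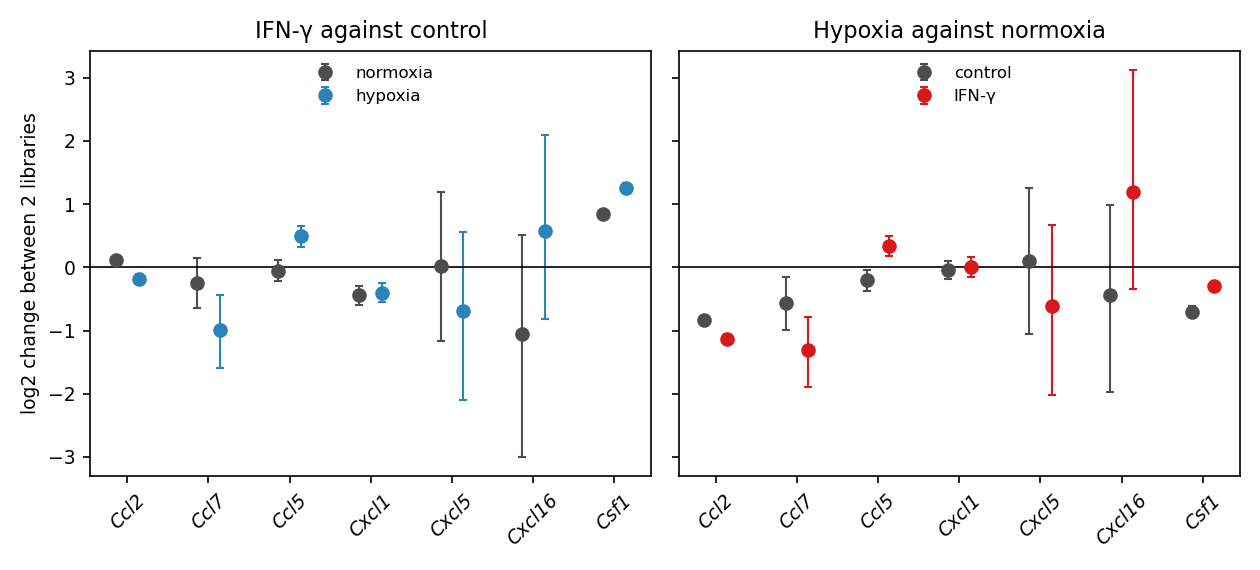
Log2 change between 2 single libraries for the 7 tested factors, with 95% Clopper-Pearson intervals of the 2 counts (counting error only): IFN-γ against control at each oxygen level on the left, hypoxia against normoxia without and with IFN-γ on the right. Ccl2 lies under 0 in both hypoxia pairs, Csf1 above 0 in both IFN-γ pairs, and Ccl5 changes side between the pairs, while Cxcl5 and Cxcl16 have intervals wider than 2 log2 units.

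The design also asks whether IFN-γ acts alike at both oxygen levels. The difference between the log2 changes under hypoxia and normoxia uses all degrees of freedom in these 4 libraries and was not tested. For Csf1 it was 0.41 (95% interval 0.31 to 0.51, counting error only), a larger size than all but 0.6% of the 500 genes nearest in expression. For Ccl5 it was 0.55 (0.32 to 0.78), reached in size by 1.4% of its neighbours, and for Ccl2 it was -0.29 (-0.39 to -0.19), reached by 3.4%. These 3 intervals stayed clear of 0 with halved counts. For Ccl7 the difference was -0.75 (-1.41 to -0.08), an interval that included 0 with halved counts, and for Cxcl1 it was 0.04 (-0.17 to 0.26). Over the 10443 genes that reached 100 counts in all 4 libraries, 95% of the differences lay between -0.36 and 0.40, and 20.1% fell outside their own interval from halved counts, so counting error alone does not describe them.

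The chemokine counts as a whole changed in make-up. Over 38 chemokine genes, the 4 libraries held 11352, 8877, 20340 and 15629 counts (328, 257, 593 and 456 CPM), and 16 to 19 of the genes had more than 3 counts. Ccl2 made up 41.6% of these counts in control normoxia (95% Clopper-Pearson interval 40.7 to 42.5), 29.7% in control hypoxia (28.7 to 30.6), 24.8% in IFN-γ normoxia (24.2 to 25.4) and 14.7% in IFN-γ hypoxia (14.2 to 15.3). Cxcl10, a CXCR3 ligand that attracts activated T cells, made up 32.2%, 37.4%, 60.7% and 64.8% in the same order. Shares add up to 100%, so the lower share of Ccl2 in IFN-γ normoxia went with more Cxcl10 counts and not with fewer of its own. Cxcl1 took 7.28%, 9.05%, 2.95% and 3.86%, and Ccl5 took 5.41%, 5.98%, 2.88% and 4.73%. All these shares are of counts not scaled to transcript length. Per kilobase of transcript, Ccl2 stood ahead of Cxcl10 in control hypoxia, at 37.1% and 28.2%, the reverse of their order in counts.

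Ratios within a library do not depend on its scaling. The CXCR3 ligands Cxcl9, Cxcl10 and Cxcl11 together had 0.762 times the counts of the monocyte ligands Ccl2 and Ccl7 in control normoxia (95% interval 0.730 to 0.796), 1.23 times in control hypoxia, 2.46 times in IFN-γ normoxia and 4.47 times in IFN-γ hypoxia (4.27 to 4.67). Each stimulus alone gave a higher ratio than neither, and both together the highest. Per kilobase of transcript the 4 ratios were 0.457, 0.740, 1.47 and 2.66, in the same order. In control hypoxia the CXCR3 ligands thus exceeded the monocyte ligands in counts but not per kilobase. The monocyte ligands had 5.76 times the counts of the neutrophil ligands Cxcl1, Cxcl2 and Cxcl5 in control normoxia, 3.32 in control hypoxia, 8.33 in IFN-γ normoxia and 3.79 in IFN-γ hypoxia. This ratio was lower in both hypoxic libraries than in both normoxic ones. The neutrophil set is partial: it leaves out Ppbp, another CXCR2 ligand (113 to 202 counts), and Cxcl3 (48 to 103 counts).

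**Figure D4:**
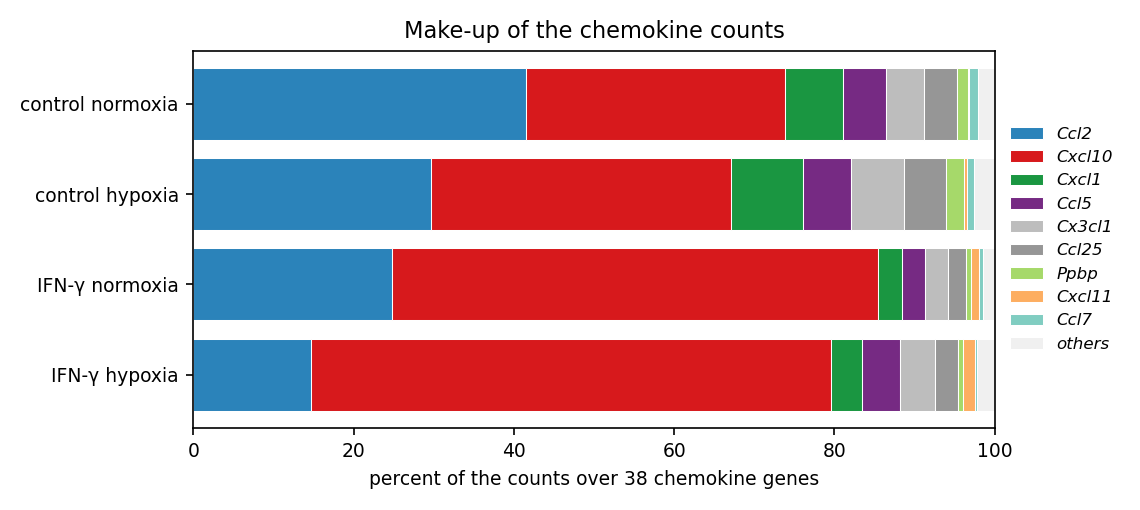
Share of each chemokine in the counts over 38 chemokine genes, as stacked bars from 0 to 100% with 1 bar per library. The share of Ccl2 (blue) goes from 41.6% in control normoxia to 14.7% in IFN-γ hypoxia, and that of Cxcl10 (red) from 32.2% to 64.8%. Counts are not scaled to transcript length.

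Other genes of the same pathways were described from lists chosen with earlier results of these data known. Of 30 other chemokines, 11 were tested. IFN-γ raised 4 of them (Cxcl9, Cxcl10, Cxcl11 and Ccl8) and lowered 1 (Ppbp), and hypoxia lowered 1 (Cxcl10, log2 change -0.21, adjusted p = 0.00226). DESeq2 called 3 raised and 0 lowered by IFN-γ and 0 lowered by hypoxia. The IFN-γ changes of Cxcl9, Cxcl10 and Cxcl11 were 4.26, 1.70 and 3.17 on the log2 scale. Cxcl9 had 8 counts in control normoxia and 2 in control hypoxia, the latter under the floor, so the size of its change is uncertain. Of 20 other cytokines that act on myeloid cells, 12 were tested, IFN-γ raised 4 (Flt3l, Kitl, Lif and Spp1) and hypoxia raised 4 (Il33, Lif, Mif and Vegfa). IFN-γ lowered 0 and hypoxia 0, with 0 and 1 lowered at an unadjusted p under 0.05, and DESeq2 called 2 raised by each stimulus and 0 lowered. Flt3l, the FLT3 ligand that supports dendritic cells, had 260, 309, 438 and 456 counts and a log2 change of 0.67 with IFN-γ (adjusted p = 1.46e-06). Mif, the macrophage migration inhibitory factor, had 25693, 41261, 26081 and 37582 counts and a log2 change of 0.61 with hypoxia (adjusted p = 2.75e-35). Hypoxia went with lower counts of Ccl2 and Csf1 and higher counts of Mif and Vegfa in the same libraries.

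None of the 12 receptors for these factors passed the filter on low counts: 8 or 9 of them were at 0 in each library, Ccr2 in every library, and the most counted was Csf1r. Among 7 atypical receptors and shedding proteases, 3 were tested and IFN-γ raised Ccrl2, which binds the attractant chemerin, from 2 to 40 counts under normoxia and from 6 to 59 under hypoxia. All 21 genes of the NF-κB list were tested. IFN-γ raised Nfkbiz and Cebpb and lowered Traf1, and hypoxia raised Tnfaip3, Nfkbiz, Ikbkg and Jun and lowered Cebpb and Nfkbib. DESeq2 called 2 raised by each stimulus and 0 lowered. Tnfaip3, a feedback inhibitor of NF-κB, had 371, 727, 361 and 712 counts (log2 change 0.98 with hypoxia, adjusted p = 8.26e-19). Cebpb, a transcription factor of inflammatory genes, had 2166, 1743, 3036 and 2655 counts, with a log2 change of 0.56 with IFN-γ and -0.25 with hypoxia. Of 12 genes linked to the decay of AU-rich mRNAs, a group that includes several chemokine mRNAs, hypoxia raised Dusp1 and lowered Zfp36l2. IFN-γ changed 0 of them, with 1 raised and 0 lowered at an unadjusted p under 0.05. DESeq2 called 0 of the 12 for either stimulus. What part these genes have in the changes of the 10 factors was not tested.

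The genes most like each well-counted factor were found by the distance between mean-centred log2 CPM over the 4 libraries, restricted to genes that reached 100 counts in each. Nearest to Ccl2 were Gxylt2, Atoh8 and Nr1d1, at distances of 0.25, 0.30 and 0.40, where Ccl2 itself lay 0.995 from a flat profile. Nearest to Csf1, which lay 1.18 from flat, were Ctrl, St6galnac4 and Ifit1, at 0.31, 0.34 and 0.45. Cxcl1 was closest to Slc43a2, Stap2 and L3hypdh (0.04, 0.08 and 0.08), and Ccl5 to Angptl4, Phactr4 and Glipr2 (0.01, 0.02 and 0.05). Cxcl1 and Ccl5 lay nearer to flat themselves, at 0.42 and 0.36, so short distances are less particular there.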

How the data were processed

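Per the labels, poly-A RNA was made into strand-specific libraries and sequenced as paired-end reads of 100 bases on a DNBSEQ instrument. Alignment was by HISAT2, and the submitters' processing notes name featureCounts and mm10. The deposited counts are whole numbers of reads per NCBI gene ID, which the authors did not normalize or filter, and 25275 of 27179 IDs were matched to a symbol. The annotation, the handling of multiply mapped reads and whether pairs were counted once are not given in the sources used here.

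The members and gene lists were chosen with earlier results of these data known. Counts were tested with edgeR 4.0.16 in R 4.3.3 (quasi-likelihood test, TMM factors 0.993 to 1.01, default filter at 10 counts, additive model with 1 residual degree of freedom, Benjamini-Hochberg threshold 0.05 over 13580 genes). The dispersion pooled over genes was 0.00222 (coefficient of variation 4.71%). This spread is the departure from additivity pooled over genes, and a true interaction counts as spread. For pairs of libraries, 0.5 was added to each count before the log2 ratio of TMM-scaled values was taken, and Clopper-Pearson 95% intervals were given, and levels have exact Poisson intervals (Python 3.11.15, scipy 1.17.1). CPM per kilobase used the longest protein-coding GENCODE M21 transcript, since the RefSeq table, which had been planned, gives no transcript lengths. The tests were tried on simulated counts first.

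All 10 members were named whatever their values. Of the other lists, genes with an adjusted p under 0.05 and a mean of at least 50 counts were named, at most 6 per list and stimulus, together with the CXCR3 ligands, and 3 genes of most like pattern for each member with at least 100 counts in every library. Il34, Cxcl3, Adam10, Adam17, Csf1r, the Csf2 receptor subunits, Ccrl2, Ccl8, Il33, Ccr2 and the cell type markers were named outside this rule, after their values were seen. Alternatives were DESeq2 1.42.0, its size factors in edgeR, total counts, other filters, 1 factor at a time, a log2 change of at least 1 as well, 5 counts added, and halved counts. DESeq2's adjusted p for Ccl7 with hypoxia was NA and was kept so. Protein sequences were not used here.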

Additional observations from a re-analysis of the deposited data

Results flagged for a closer look

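Ccl2 differed in the direction of its single-pair IFN-γ changes between the oxygen levels. It had 4719 counts in control and 5041 in IFN-γ cells under normoxia (log2 change 0.11, 95% interval 0.05 to 0.17), and 2634 and 2302 under hypoxia (-0.18, -0.26 to -0.10). The difference, hypoxia minus normoxia, was -0.29 and was not tested, since 1 library per condition leaves no degree of freedom for it. Both intervals cover counting error only, so a turn of sign between cultures is not shown. The fitted IFN-γ change of Ccl2 was not called (adjusted p = 0.937 by edgeR).

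Ccl5 moved the other way round, with 614 and 585 counts under normoxia (-0.06, 95% interval -0.22 to 0.11) and 531 and 740 under hypoxia (0.49, 0.33 to 0.66). Its difference was 0.55 and was likewise not tested. The normoxic interval of Ccl5 includes 0, so only its hypoxic change lies beyond counting error.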

How the results depend on the processing

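Counts of called genes depended on the model. With 1 factor at a time, IFN-γ raised 239 and lowered 3 genes and hypoxia raised 150 and lowered 26. Of the 10 factors, IFN-γ then raised 0 and lowered 0 and hypoxia lowered 1 (Ccl2). DESeq2 called 348 raised and 17 lowered by IFN-γ, 342 raised and 215 lowered by hypoxia, with 0 of the factors lowered by IFN-γ. Requiring a log2 change of at least 1 as well left 238 and 8 genes for IFN-γ and 107 and 8 for hypoxia, and 0 factors lowered by IFN-γ and 0 by hypoxia. Genes lowered by IFN-γ, 149 in the additive edgeR model, numbered 99 with DESeq2's size factors, 71 without a filter, 74 with at least 10 counts in every library and 46 with halved counts. Halved counts left 685 genes raised and 495 lowered by hypoxia. Per kilobase, the ratio of CXCR3 to monocyte ligands was 0.457 in control normoxia, 0.740 in control hypoxia, 1.47 in IFN-γ normoxia and 2.66 in IFN-γ hypoxia.

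Among values of single genes, the fitted IFN-γ change of Ccl2, which was called nowhere, turned its sign to 0.0117 with 1 factor at a time, and the IFN-γ change of Cxcl5 under normoxia, 0.0142 with an interval that included 0, turned to -0.00985 with total counts. Another 9 kept their direction but lost their call or had an interval that included 0, and 12 levels per kilobase moved beyond counting error with the longest transcript of any type. The others kept their call or moved by less than counting error. No paired analysis was possible because each condition has 1 library, and no library could be left out with a degree of freedom remaining. Of the 10 factors, 5 had at most 15 counts in any library, of which 3 were not tested and the others were called for neither stimulus.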
